A study of Mus musculus with 12 samples.

Results

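The immediate early AP-1 and EGR genes described here are 10 genes, Fos, Fosb, Fosl2, Jun, Junb, Jund, Egr1, Egr2, Atf3 and Ier3, of the 57010 genes in the deposited count table. They were chosen by symbol, and each symbol matched 1 Ensembl identifier. All 10 passed the filter on low counts, as did 15943 genes in all. The cells were large peritoneal macrophages (LPM), macrophages that reside in the peritoneal cavity of mice, sorted as F4/80 high and MHCII low. There were 4 groups of 3 libraries: naive WT mice, naive mice lacking the scavenger receptor Tim4 (Tim4KO), and WT and Tim4KO mice given ID8ZGO cells intraperitoneally 24 h before sorting (WT ID8 and Tim4KO ID8). ID8ZGO is the ID8 mouse ovarian tumour line carrying ZsGreen and OVA. All mice were female, and those injected were 8 weeks old. The age of the naive mice, the strain, the design of the Tim4 deletion and whether animals were pooled are not given in the sources used here. From challenged mice ZsGreen-positive LPM were taken and from naive mice unselected LPM, so tumour challenge and uptake of tumour material cannot be told apart. The question put by the design is how transcription changes with phagocytosis when Tim4 is present or missing.

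Immediate early genes are transcribed within minutes of a stimulus, without new protein synthesis, through MAP kinases that act on factors such as SRF with its TCF partners, CREB and pre-existing AP-1. Many of their mRNAs and proteins are short-lived. AP-1 is a dimer of a JUN protein (Jun, Junb, Jund) with another JUN protein or a FOS protein (Fos, Fosb, Fosl2), and ATF3 is a related bZIP factor that can pair with JUN proteins. EGR1 and EGR2 are zinc finger factors, and IER3 is a stress-induced regulator of survival signalling. In macrophages these genes respond to microbial products, to adhesion and to the handling of the cells, and freshly sorted macrophages often carry their mRNAs.

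Library totals ran from 7358559 to 23170244 counts. A level of 3 counts, the lowest told from 0 here, was 0.129 to 0.408 CPM (counts scaled to a common library total), a limit that covers counting error only. Timd4, which encodes Tim4, had 9685 to 21320 counts in WT libraries and 20 to 128 in Tim4KO libraries. The 11 LPM markers were all detected. Their summed level was 20245 to 25254 CPM in WT naive and 16862 to 19431 CPM in WT ID8. In Tim4KO it was 22568 to 25890 CPM in naive and 20405 to 21084 CPM in ID8. The challenged libraries thus lay below the naive ones in both genotypes, though single markers moved in both directions. The library WT ID8 3 stood apart from its group: 6 cell cycle genes, a list added after the data were seen, summed to 1537 CPM there and to 58.7 to 211 CPM in the other libraries. Because the libraries are not stated to come from separate mice, the p-values measure the spread between these libraries, which may be technical.

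Promoter sequences are shown for Jun, Atf3 and Fosl2, members that rose or fell with challenge. They are the 250 bases before the RefSeq start site on GRCm38.p6, 5′ to 3′ on the gene's strand, with motif matches in capitals. The Jun window is chr4:95052223-95052472 (minus strand), the Fosl2 window chr5:32136222-32136471 (plus strand) and the Atf3 window chr1:191183334-191183583 (minus strand).
Jun: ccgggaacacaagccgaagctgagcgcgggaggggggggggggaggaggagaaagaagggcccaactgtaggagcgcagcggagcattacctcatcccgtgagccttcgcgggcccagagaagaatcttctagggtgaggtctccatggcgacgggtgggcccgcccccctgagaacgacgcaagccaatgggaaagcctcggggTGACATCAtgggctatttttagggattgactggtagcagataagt
Fosl2: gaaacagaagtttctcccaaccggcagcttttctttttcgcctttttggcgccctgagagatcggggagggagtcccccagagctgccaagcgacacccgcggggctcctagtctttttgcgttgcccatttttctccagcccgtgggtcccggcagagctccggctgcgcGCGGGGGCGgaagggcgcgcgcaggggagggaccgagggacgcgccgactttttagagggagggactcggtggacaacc
Atf3: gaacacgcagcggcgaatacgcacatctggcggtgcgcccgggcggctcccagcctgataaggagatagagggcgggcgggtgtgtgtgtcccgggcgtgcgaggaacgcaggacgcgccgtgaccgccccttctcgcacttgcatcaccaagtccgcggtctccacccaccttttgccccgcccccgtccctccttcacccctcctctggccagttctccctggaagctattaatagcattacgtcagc
The capitals in Jun mark TGACATCA, the AP-1-like variant known from this promoter, beginning 45 bases before the start. The capitals in Fosl2 mark a match to the EGR motif GCGNGGGCG, beginning 79 bases before the start.

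Both strands were searched for 6 motifs, and 9 of the 10 members had an entry in the set of RefSeq promoter windows used here, Egr1 being the exception. TGACATCA was present in 2.93% of the 32851 RefSeq promoter windows of this length, the EGR motif in 4.7%, the CRE TGACGTCA in 1.55%, the AP-1 motif TGANTCA in 6.75%, the CArG box bound by SRF in 1.47% and TATAAA in 12.4%. Outside the windows shown, Fos had TATAAA 33 bases before its start, Fosb had the EGR motif 50 bases before, and 4 of the 5 listed Egr2 starts had a CArG box between 72 and 133 bases before. For Egr2 starts 3, 4 and 5, whose windows overlap, this was the same CCATATATGG site, and for start 2 it was CCTTTTTTGG. The Atf3, Ier3, Junb and Jund windows held none of these letters. Bases just after the Junb, Jund and some of the Egr2 starts were not found in transcripts of these genes in the GENCODE annotation. Those windows may thus not lie at a start annotated there. A match is a description of the sequence and not a measured binding site.

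Levels of different genes were compared per length, as CPM per kilobase of exon. Averaged over the 12 libraries, Junb stood highest at 132 CPM per kilobase (116 to 148), and its lowest library lay above every library of every other member. Ier3 followed at 46.8 (28.5 to 61.0), Jund at 34.7 (25.8 to 48.3), Jun at 19.1 (7.56 to 32.4) and Atf3 at 15.8 (9.50 to 24.6). Fos at 9.11 (3.59 to 19.5), Egr1 at 7.42 (2.05 to 14.9) and Fosl2 at 7.04 (4.91 to 9.48) came next. Egr2 at 1.35 (0.241 to 2.95) and Fosb at 0.167 (0.0123 to 0.312) were lowest. Apart from Junb with Ier3 and Fosl2 with Egr2, each pair of neighbours in this order had overlapping ranges.

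Reads spread over the genome give a background, which was measured in olfactory and vomeronasal receptor genes and carried over per exonic base. That background amounted to 1% to 59.7% of the Fosb level, depending on the library, and to 0.109% to 26% of the Egr2 level. It reached at most 4.08% for the other members. The Fosb values therefore lie close to background in some libraries. Summed over these receptor genes it was 324 to 836 CPM in WT naive, 267 to 449 CPM in Tim4KO naive, 6.25 to 254 CPM in WT ID8 and 41.9 to 362 CPM in Tim4KO ID8, so that the WT groups did not overlap and the Tim4KO groups did.

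**Figure D1:**
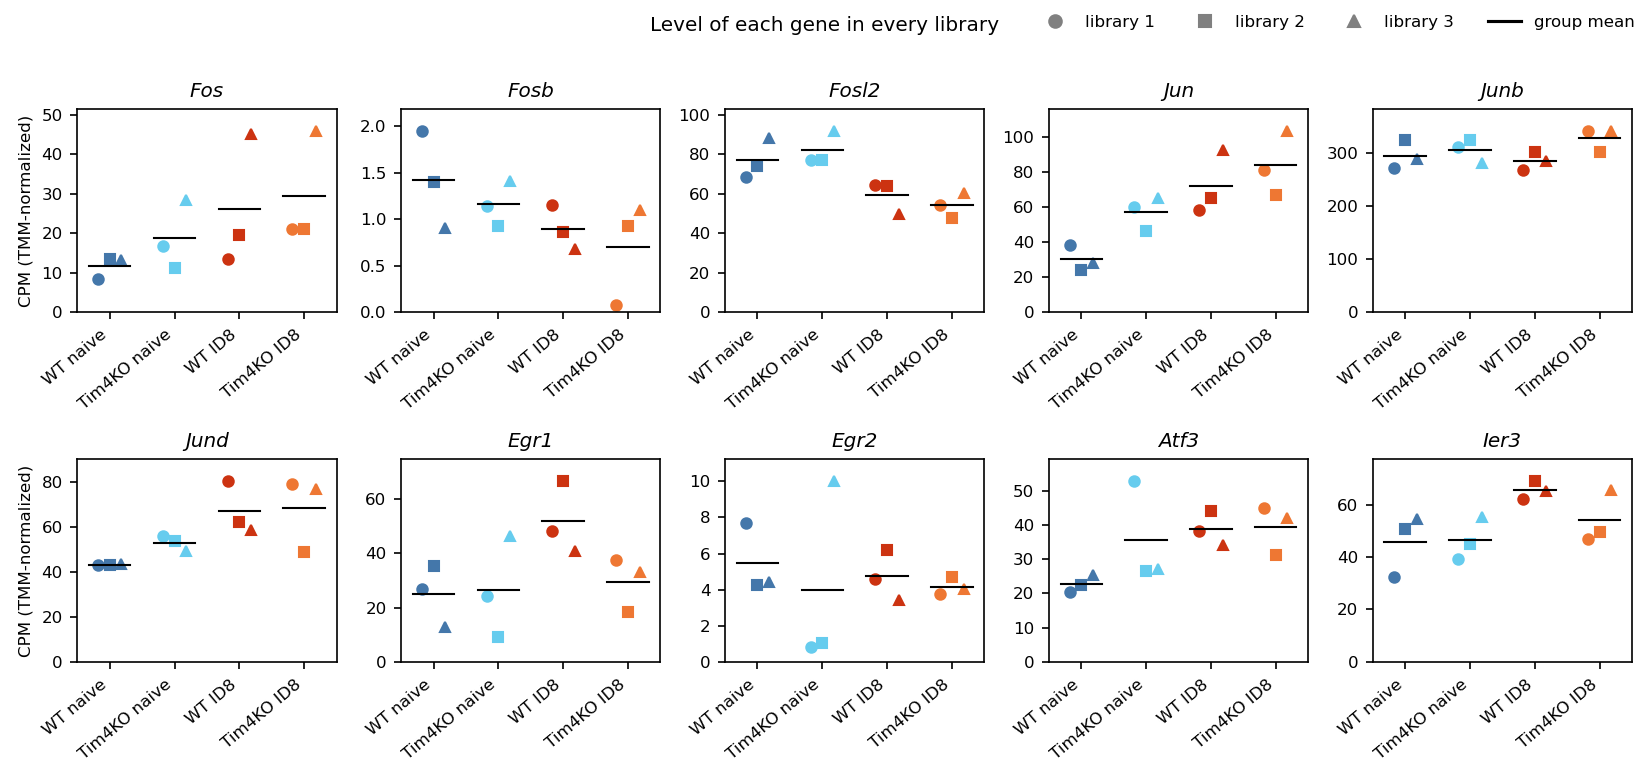
Level of each of the 10 genes in every library, as TMM-normalized CPM on linear axes that start at 0, with circles, squares and triangles for libraries 1, 2 and 3 and a black line for the group mean. Jun, Jund and Atf3 in all WT ID8 libraries lie above all WT naive libraries, whereas Junb stays between 267 and 341 CPM in all 12 libraries.

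Among the 10 genes, Jun, Jund and Atf3 rose with challenge in WT macrophages, and none fell past the threshold of an edgeR adjusted p of 0.05. In Tim4KO macrophages Fosl2 fell and none rose. The 3 of 10 genes called in WT stand beside 31.8% of all 15943 tested genes called in that comparison, 19.5% being higher and 12.3% lower, so the count is near the background. The 1 of 10 called in Tim4KO stands beside 16.6% of all genes, 11.5% being higher and 5.06% lower. The median log2 change of the 10 genes was 0.57 in WT and 0.14 in Tim4KO, and over all genes it was -0.04 and -0.05. Without WT ID8 3, the library that stood apart, Jun, Jund and Atf3 were again the genes called in WT, at log2 changes of 1.08, 0.74 and 0.87. Under upper-quartile scaling the WT count became 1 higher (Jun) and 2 lower (Fosl2 and Junb), with a median of 0.34 over the 10 genes and of -0.28 over all genes. With DESeq2 size factors it was 3 higher and 1 lower (Fosl2), and with the replicate number as a block 5 higher (Fos and Ier3 being added) and 0 lower. In bulk samples, fewer cells of a type and less RNA per cell cannot be told apart. The challenge comparisons share no library with each other, but each shares libraries with both genotype comparisons.

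Jun encodes c-Jun, the classical partner of c-Fos. In WT naive libraries Jun was at 38.1, 24.1 and 28.1 CPM, and in Tim4KO naive libraries at 60.4, 46.5 and 65.1 CPM. In WT ID8 libraries it was at 58.4, 65.4 and 92.5 CPM, and in Tim4KO ID8 libraries at 81.5, 67.0 and 103 CPM. The WT naive libraries lay below all 9 others, and within each genotype the challenged libraries did not overlap the naive ones. The change with challenge was 2.41-fold in WT (log2 1.27, SE 0.22, adjusted p = 0.00082). Jun was called in 10 of 10 other settings of the analysis and in 12 of 12 fits that left out a library. In Tim4KO the change was 1.46-fold (log2 0.55, SE 0.22, adjusted p = 0.0999) and did not pass the test, although it did with no filter on low counts (adjusted p = 0.0135), with only the groups compared (adjusted p = 0.0442), with the replicate block (adjusted p = 0.0436) and without WT ID8 3 (adjusted p = 0.0224). The window chr4:95052223-95052472 printed above is that of this gene.

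Jund encodes the JUN protein that is usually present in resting cells. It was at 43.0, 43.1 and 43.4 CPM in WT naive and at 80.6, 62.1 and 58.7 CPM in WT ID8, which do not overlap. In Tim4KO it was at 56.1, 53.9 and 49.2 CPM in naive and at 79.2, 48.9 and 77.2 CPM in ID8, where ID8 library 2 lay below all naive libraries. Jund rose 1.55-fold in WT (log2 0.63, SE 0.17, adjusted p = 0.0119), a call lost under upper-quartile scaling (adjusted p = 0.0886). The Tim4KO change was 1.29-fold (log2 0.37, SE 0.17, adjusted p = 0.157), and 0.60 on the log2 scale with adjusted p = 0.0209 without Tim4KO ID8 2.

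Junb encodes a JUN protein that can restrain c-Jun and is abundant in these cells. Naive libraries held 271, 323 and 289 CPM of Junb in WT and 311, 324 and 280.0 CPM in Tim4KO. Challenged libraries held 267, 301 and 285 CPM in WT and 341, 302 and 340.0 CPM in Tim4KO. The groups overlapped except that the Tim4KO ID8 libraries all lay just above the WT ID8 libraries. Its log2 change was -0.05 in WT (95% interval -0.30 to 0.20) and 0.10 in Tim4KO (-0.15 to 0.35). Under upper-quartile scaling Junb was called lower in WT (log2 -0.29, adjusted p = 0.0293), a setting that moved the median of all genes there to -0.28.

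Fosl2 encodes Fra-2, a FOS protein of slower kinetics than c-Fos. It was at 68.6, 74.3 and 88.2 CPM in WT naive and at 64.4, 64.1 and 49.6 CPM in WT ID8. In Tim4KO it was at 77.3, 77.2 and 91.7 CPM in naive and at 54.4, 47.5 and 60.5 CPM in ID8. Every challenged library lay below every naive library, in both genotypes. Fosl2 fell 1.52-fold in Tim4KO (log2 -0.60, SE 0.15, adjusted p = 0.0118). The call was lost without Tim4KO naive 3 (adjusted p = 0.075), Tim4KO ID8 1 (adjusted p = 0.0545) or Tim4KO ID8 2 (adjusted p = 0.0911), where the log2 change was -0.50, -0.59 and -0.48. In WT the log2 change was -0.38 (SE 0.15, adjusted p = 0.0595). That value passed the test in 5 of 10 other settings, among them DESeq2 (log2 -0.44, adjusted p = 0.0148).

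Fos encodes c-Fos and is among the fastest induced genes of this set. Naive libraries held 8.45, 13.4 and 13.3 CPM of Fos in WT and 16.6, 11.1 and 28.5 CPM in Tim4KO. Challenged libraries held 13.5, 19.6 and 45.0 CPM in WT and 21.1, 20.9 and 45.8 CPM in Tim4KO. The 3 highest values were in WT ID8 3, Tim4KO ID8 3 and Tim4KO naive 3. These libraries also had the largest totals (23170244, 17495710 and 16446271 counts), and the part of depth was not tested. WT ID8 lay above WT naive, its lowest library only just, and the Tim4KO groups overlapped. The change with challenge was 2.24-fold in WT (log2 1.16, 95% interval -0.02 to 2.34, adjusted p = 0.114) and 1.55-fold in Tim4KO (log2 0.63, -0.52 to 1.79, adjusted p = 0.458). Without WT ID8 3 the WT value was 0.52 on the log2 scale (adjusted p = 0.481); leaving out WT ID8 1 instead gave 1.54 with adjusted p = 0.0489. With the replicate block over all libraries Fos was called in WT (log2 0.995, adjusted p = 0.0148), and with the block over the WT libraries alone it was not (log2 0.91, adjusted p = 0.0563). In each of the 4 groups library 1 lay below the group mean of the log2 Fos level and library 3 above it.

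Fosb, which encodes another FOS protein, had 1 to 25 counts per library. Its log2 change was -0.67 in WT (adjusted p = 0.427) and -0.73 in Tim4KO (adjusted p = 0.492), and in the second of these the Tim4KO ID8 1 library held the single count.

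Egr1, which encodes an early factor downstream of growth factor and stress signals, was at 26.8, 35.3 and 13.0 CPM in naive WT and at 24.1, 9.19 and 46.5 CPM in naive Tim4KO libraries. After challenge it was at 48.3, 66.7 and 40.9 CPM in WT and at 37.4, 18.3 and 33.0 CPM in Tim4KO. WT ID8 lay above WT naive and above Tim4KO ID8, and the 2 Tim4KO groups overlapped. The change was 2.08-fold in WT (log2 1.05, SE 0.56, adjusted p = 0.172) and 1.09-fold in Tim4KO (log2 0.13, SE 0.56, adjusted p = 0.901), neither past the threshold. With the replicate block over the WT libraries alone the WT value passed (log2 1.04, adjusted p = 0.0117). Under upper-quartile scaling the Tim4KO value changed sign to -0.0087.

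Egr2 was at 7.69, 4.27 and 4.40 CPM in naive WT libraries. After challenge it was at 4.60, 6.19 and 3.42 CPM in WT and at 3.77, 4.71 and 4.03 CPM in Tim4KO. In Tim4KO naive it was at 0.820, 1.07 and 10.0 CPM, from 10, 8 and 178 counts. The first and second of these were the lowest of the 12 libraries and the last was the highest. No Egr2 comparison was called with all libraries. Without Tim4KO naive 3, edgeR called Egr2 lower in Tim4KO than in WT naive cells (log2 -2.52, adjusted p = 0.0412) and higher with challenge in Tim4KO (log2 2.17, adjusted p = 0.00417), so both values rest on that library.

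Atf3 was at 20.5, 22.5 and 25.5 CPM in WT naive and at 38.2, 44.2 and 34.1 CPM in WT ID8. In Tim4KO it was at 52.9, 26.6 and 27.1 CPM in naive and at 44.9, 31.3 and 42.0 CPM in ID8. The WT groups did not overlap, and the highest of all 12 values was a naive one, Tim4KO naive 1. Atf3 rose 1.70-fold in WT (log2 0.76, SE 0.24, adjusted p = 0.0258). The call was lost without WT naive 1 (adjusted p = 0.0879), WT naive 2 (adjusted p = 0.0611) or WT ID8 2 (adjusted p = 0.0838), and in 3 of 10 other settings, upper-quartile scaling (adjusted p = 0.0861), a mean count of at least 50 (adjusted p = 0.0582) and the background level as a covariate (adjusted p = 0.13). In Tim4KO the log2 change was 0.15 (SE 0.23, adjusted p = 0.711), and 0.57 with adjusted p = 0.0399 without Tim4KO naive 1.

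Ier3 was at 32.3, 50.5 and 54.6 CPM in WT naive and at 61.9, 69.0 and 65.2 CPM in WT ID8. In Tim4KO it was at 39.2, 45.1 and 55.2 CPM in naive and at 46.7, 49.5 and 65.6 CPM in ID8. The WT groups did not overlap and the Tim4KO groups did. The WT change was 1.42-fold (log2 0.51, SE 0.19, adjusted p = 0.0516). It passed in 7 of 12 fits that left out a library and in 3 of 10 other settings, among them the replicate block (log2 0.54, adjusted p = 0.0127). In Tim4KO it was 1.16-fold (log2 0.21, SE 0.19, adjusted p = 0.49).

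In WT, 6 of the 10 genes (Fos, Jun, Jund, Egr1, Atf3 and Ier3) had challenged libraries all above the naive ones, against 23.3% of all tested genes, and 1 (Fosl2) had them all below, against 21%. An unadjusted p under 0.05 was reached by 5 of the 10 in WT, against 45.5% of all genes, and by 3 of the 10 in Tim4KO, against 29.9%. In Tim4KO, Jun alone lay above without overlap, against 23.7% of all genes, and Fosl2 alone below, against 18.1%. The Tim4KO response minus the WT response was not called for any of the 10 genes by edgeR, DESeq2 or limma voom, as for 0% of all genes by edgeR. At an unadjusted p under 0.05 it held 1 of the 10 genes against 7.44% of all genes. That gene was Jun, at -0.72 on the log2 scale (95% interval -1.38 to -0.07, adjusted p = 0.668). A difference between the genotypes in the response of these genes was thus not shown, and the 95% interval reached beyond 1 on the log2 scale, in at least 1 direction, for Fos, Fosb, Jun, Egr1, Egr2 and Atf3.

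**Figure D2:**
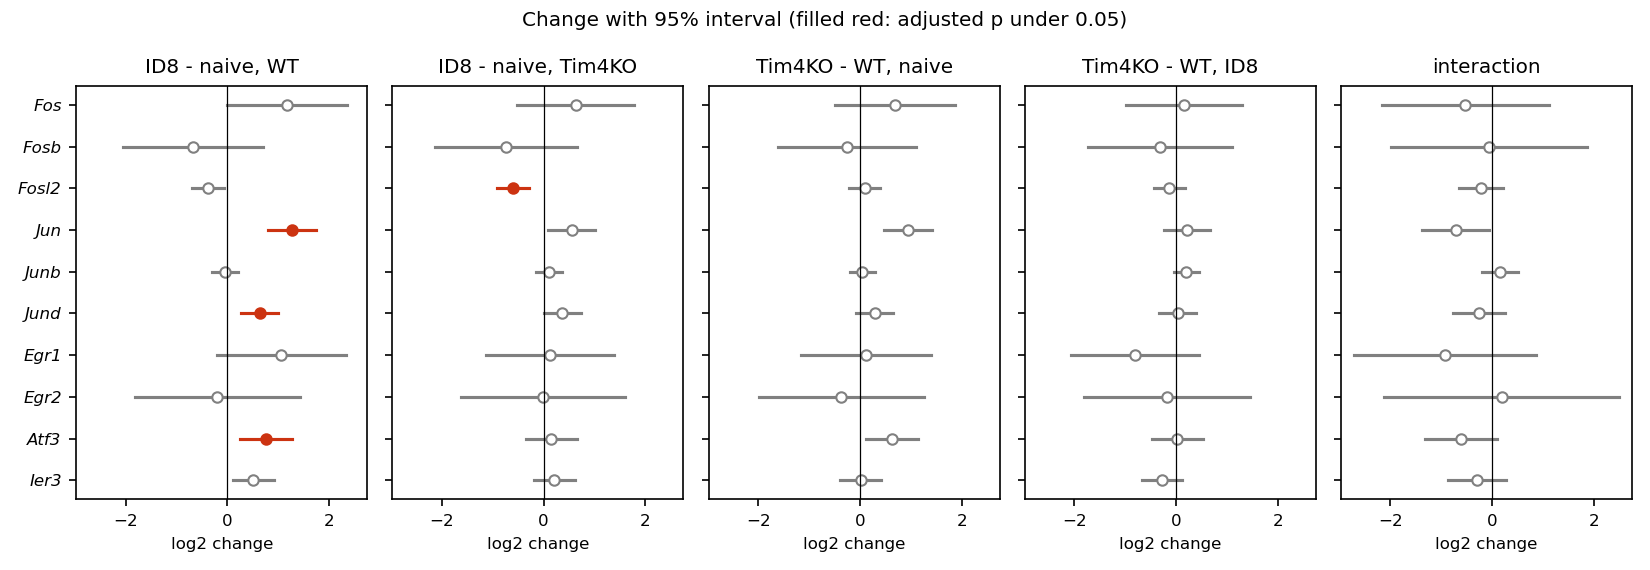
Log2 change of the 10 genes (rows) in the 5 comparisons (columns), with 95% intervals from the edgeR fit and filled red symbols where the adjusted p was under 0.05. Jun, Jund and Atf3 are filled on the positive side in WT and Fosl2 on the negative side in Tim4KO, and the intervals of Fosb, Egr1 and Egr2 span 0 in every column.

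Between genotypes, none of the 10 genes was called by edgeR in naive cells, where 0.0439% of all genes were called, or in challenged cells, where 0.0565% were. In naive cells 2 of the 10 passed an unadjusted p of 0.05 against 6.27% of all genes, and in challenged cells 0 of 10 did against 12.1%. DESeq2 called 1 of the 10 in naive cells and 0 in challenged cells, and limma voom called 0 in both. In naive cells the Jun libraries of Tim4KO lay above those of WT without overlap. The difference was 1.92-fold (log2 0.94, SE 0.22, unadjusted p = 0.000757, adjusted p = 0.353). Jun passed with DESeq2 (log2 0.91, adjusted p = 0.0495), with no filter on low counts (log2 0.95, adjusted p = 0.000109) and without WT ID8 3 (log2 0.95, adjusted p = 0.0281).

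Jund and Atf3 were also higher in every Tim4KO naive library than in every WT naive library, at log2 differences of 0.30 (adjusted p = 0.813) and 0.64 (adjusted p = 0.722). The 3 genes that lay higher without overlap stand beside 7.34% of all genes, and the 0 that lay lower beside 6.84%. In challenged cells Junb lay above without overlap (log2 0.20, adjusted p = 0.486), against 7.06% of all genes, and Egr1 below (log2 -0.81, adjusted p = 0.572), against 8.56%. The genotype difference of the median gene among the 10 was 0.11 in naive and -0.05 in challenged cells on the log2 scale, and -0.00 and 0.01 over all genes.

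The ratio of Jun to Fosl2 reads within a library does not depend on the scaling between libraries. In naive cells it was 0.400 ± 0.136 for WT and 0.698 ± 0.0904 for Tim4KO, and in challenged cells 1.26 ± 0.525 for WT and 1.54 ± 0.154 for Tim4KO (SD, n = 3). Every challenged library, from 0.905 upward, lay above every naive library, at most 0.781. The Tim4KO naive libraries, from 0.602 upward, also lay above the WT naive libraries, at most 0.556. As these genes were picked for the ratio after their values were seen, it is given without a test.

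Per length, Junb made up 78.3% ± 2.53 of the JUN family mRNA in naive WT, 72.7% ± 2.12 in naive Tim4KO, 66.3% ± 2.93 in challenged WT and 68.2% ± 3.67 in challenged Tim4KO cells (SD, n = 3). Jun made up 5.84% ± 1.70, 9.91% ± 2.07, 12.1% ± 2.92 and 12.5% ± 1.60 in the same order. With RefSeq gene lengths, an alternative added after the data were seen, Jun made up 5.19%, 8.95%, 11.3% and 11.5% in the groups. In WT naive Junb then made up 86.7% in place of 78.3%, and Jund 8.16% in place of 15.9%. In the other groups Jund made up 9.11%, 11.7% and 10.3%, so its mean lay below that of Jun in Tim4KO ID8. The order of Jund and Jun per length thus depends on the lengths used. Of the FOS family, Fos made up 37.5% ± 4.58, 46.2% ± 9.45, 59.8% ± 17.0 and 66.8% ± 7.35, and Fosl2 nearly all of the rest. The sum of the JUN family was 12.6, 11.6, 11.6 and 12.3 times that of the FOS family in the same order of groups. The ranges of this ratio overlapped between all groups.

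**Figure D3:**
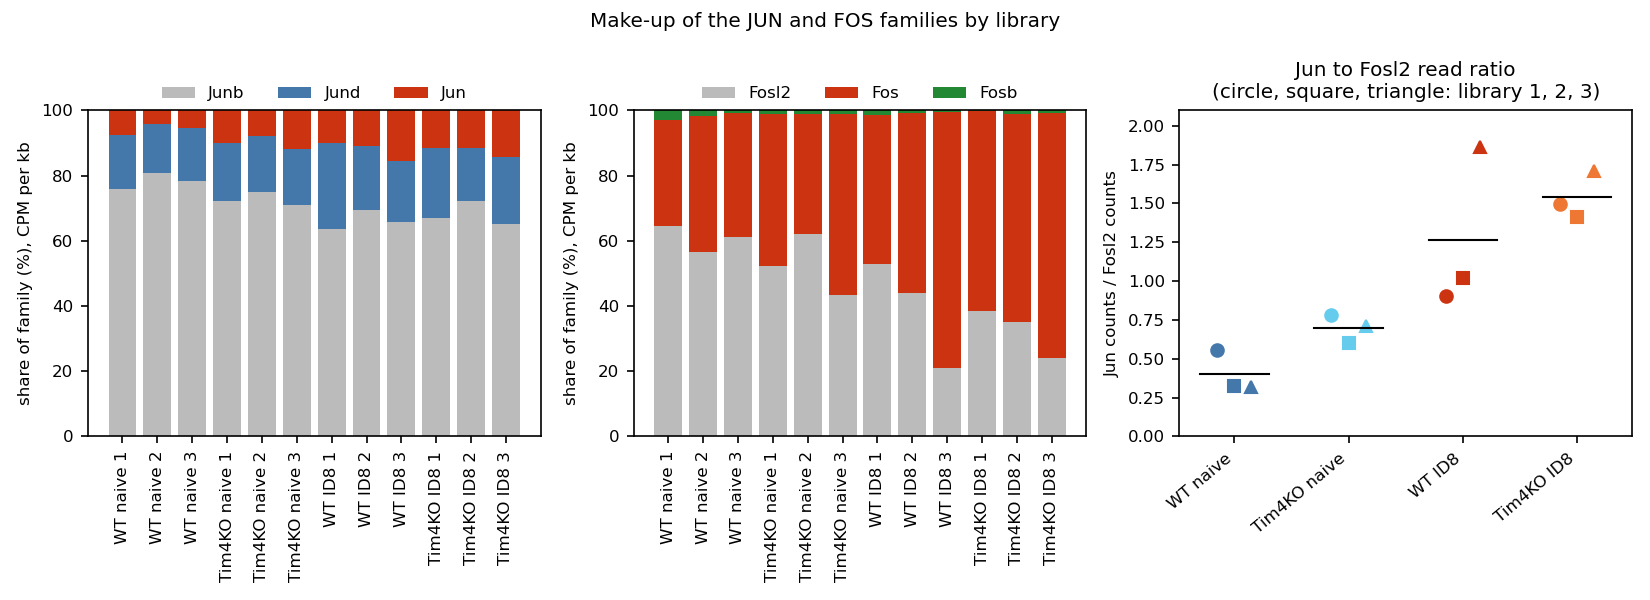
Shares of the JUN family (left) and of the FOS family (centre) in each library, in percent of the family's CPM per kilobase, and the ratio of Jun to Fosl2 counts by group (right), where a line marks the mean. The red Jun and Fos segments are larger in the challenged than in the WT naive libraries, and the ratio lies between 0.318 and 0.781 in naive and between 0.905 and 1.87 in challenged libraries.

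The members differed widely in how far libraries of the same group scattered. The within-group SD on the log2 scale was 0.99 for Egr2, 0.76 for Egr1, 0.75 for Fosb and 0.67 for Fos, larger than in 93.9%, 85.3%, 84.8% and 80.7% of tested genes. For Junb it was 0.11, larger than in 3.13% of genes, and for Fosl2 0.18. The median was 0.33 over the 10 genes and 0.28 over all tested genes. Among genes averaging 50 or more counts, a depth that Fosb did not reach, the median was lower, at 0.20. The scatter of the 10 genes thus lay further above that of well-counted genes than above that of all tested genes. After group means were taken out, the deviations of the 45 pairs of members over the 12 libraries had r from -0.56 to 0.64 with a median of 0.11, and 14 pairs were negative. The highest values were those of Fosl2 with Ier3 (0.64), Fos with Jun (0.63), Fos with Ier3 (0.60) and Egr1 with Egr2 (0.59). The lowest were those of Junb with Egr2 (-0.56) and Egr2 with Atf3 (-0.46). These 12 points share library and depth, and the correlations are descriptions without a test.

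**Figure D4:**
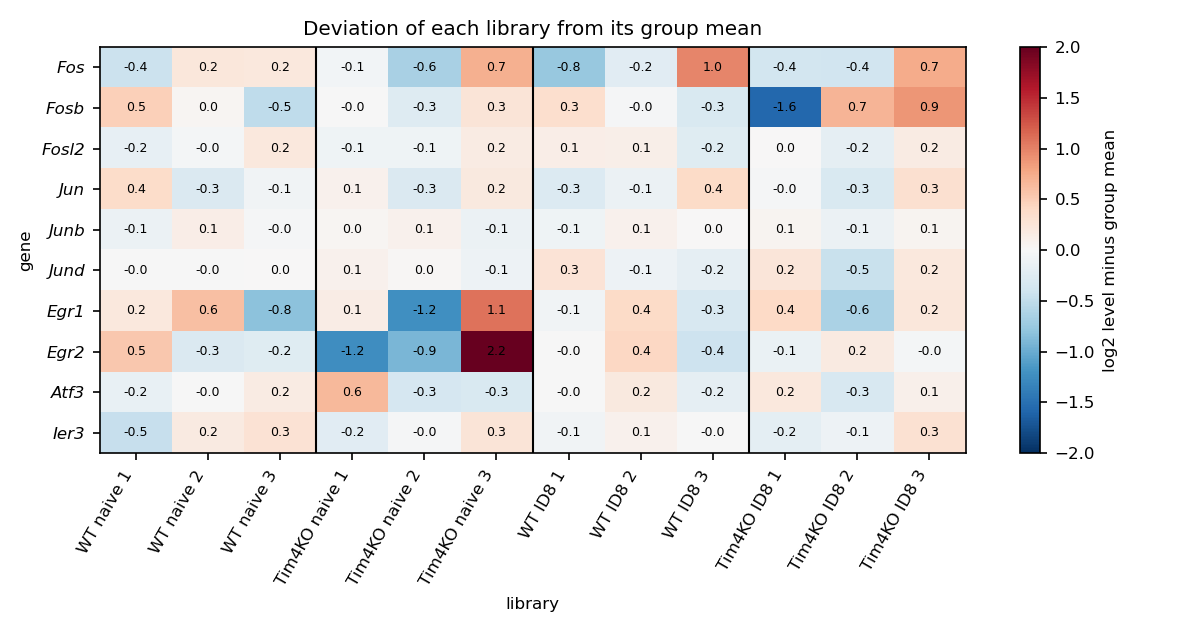
Deviation of each library from its group mean in log2 units, with genes in rows, libraries in columns, black lines between groups and the value printed in each cell. Tim4KO naive 3 stands above its group for Fos, Egr1 and Egr2, and WT ID8 3 for Fos and Jun, while the Junb row stays close to 0.

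The other genes of the pathway were read from fixed lists. Among 25 tested other immediate early genes, 4 rose and 4 fell with challenge in WT, and 2 rose and 0 fell in Tim4KO. Of all genes tested, 19.5% rose and 12.3% fell in WT, and 11.5% and 5.06% in Tim4KO. The 8 of 25 called in WT are thus near the background of 31.8%, and the 2 of 25 called in Tim4KO are below that of 16.6%. Plk2, which encodes a stress-induced kinase, rose in both genotypes (log2 0.95, adjusted p = 0.000448 in WT and log2 0.70, adjusted p = 0.00699 in Tim4KO). So did the orphan nuclear receptor gene Nr4a1 (1.20, adjusted p = 0.0101 and 0.96, adjusted p = 0.0475). Rhob, which encodes a small GTPase of endosomes, rose in WT (1.43, adjusted p = 0.00158), and Btg2, an antiproliferative gene, fell there (-0.69, adjusted p = 0.00779). The median change of the list was 0.06 in WT and -0.16 in Tim4KO, and under upper-quartile scaling it was -0.18 and -0.27, with 4 higher and 6 lower in WT and 1 higher and 4 lower in Tim4KO.

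Of 18 genes of the MAP kinase cascade, 4 rose and 1 fell in WT, and 1 rose and 2 fell in Tim4KO. These 5 and 3 genes of 18 are near the 31.8% and 16.6% of all genes called. The kinase genes Rps6ka3 (log2 0.89, adjusted p = 0.000425) and Map2k3 (0.66, adjusted p = 0.00328) rose in WT. Map2k2, which encodes MEK2, rose in both genotypes (0.54 and 0.63), and Map3k1, which encodes MEKK1, fell in both (-0.66 and -0.80). Of 12 feedback phosphatases and mRNA decay factors, 3 rose and 2 fell in WT, and 1 rose and 1 fell in Tim4KO, to be read against the same shares. Dusp10, a phosphatase of JNK and p38, rose in both (1.15 and 1.59), Dusp8 rose in WT (1.91), and Spry2, an inhibitor of growth factor signalling, fell in both (-1.18 and -1.64). Under upper-quartile scaling the MAP kinase count in WT became 2 higher and 2 lower, and the feedback count in Tim4KO 1 higher and 5 lower. With the replicate block over all libraries the feedback count was 2 higher and 3 lower in WT. In Tim4KO that block gave 1 higher and 2 lower feedback genes, and 1 higher and 1 lower MAP kinase gene.

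Of the factors upstream, SRF, its TCF partners and CREB, 0 of 10 were called in WT (2 at an unadjusted p under 0.05) and 1 of 10, Srf, rose in Tim4KO (log2 0.66, adjusted p = 0.0120). Over all genes 31.8% were called in WT, where 45.5% had an unadjusted p under 0.05, and 16.6% were called in Tim4KO. Of 11 other AP-1 and related bZIP genes, Batf rose in both genotypes (0.57, adjusted p = 0.0226 and 0.77, adjusted p = 0.00788), and Maf fell in Tim4KO (-1.02, adjusted p = 0.00417). The Batf call in WT was absent under upper-quartile scaling, which called 0 higher and 2 lower. Of the other EGR and NAB genes 0 of 3 were called in either genotype, and 0 of 3 passed an unadjusted p of 0.05. In the genotype comparisons 0 of the 79 genes tested in these lists were called by edgeR, with 9 in naive and 5 in challenged cells at an unadjusted p under 0.05. Over all genes 0.0439% were called in naive and 0.0565% in challenged cells, and 6.27% and 12.1% had an unadjusted p under 0.05.

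Heat shock genes, which together with Fos and Jun form the usual signature of tissue dissociation, moved with challenge in the same libraries. Of 11 such genes, 8 rose in WT and 6 in Tim4KO, with medians of 1.13 and 0.93 on the log2 scale, and 0 fell. Over all genes 19.5% rose and 12.3% fell in WT, and 11.5% rose and 5.06% fell in Tim4KO, with medians of -0.04 and -0.05. Hspb1 rose by 2.92 in WT (adjusted p = 9.08e-05) and by 3.54 in Tim4KO (adjusted p = 9.27e-05), and Hsp90aa1 by 2.55 and 1.09. The list did not move as one. Hspa1a, named after its values were seen, had means of 3.77 CPM in naive and 3.21 CPM in challenged WT libraries. In Tim4KO its means were 4.02 and 6.28 CPM. The summed level of the 11 heat shock genes was 2141 ± 46.5 CPM in naive WT and 2618 ± 471 CPM in naive Tim4KO cells (SD, n = 3). In challenged cells the sum was 4856 ± 1358 CPM in WT and 3784 ± 464 CPM in Tim4KO (SD, n = 3). Its range in WT naive did not meet that of any other group. Hsp90aa1 was lower in Tim4KO than in WT challenged cells (log2 -1.38, adjusted p = 0.0159). The part of cell handling in the levels of the immediate early genes was not tested.

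Markers of other cells were low and also differed with challenge. Of 7 neutrophil markers 5 stayed under 1 CPM in every library, and the sum over the list was 6.29 to 9.27 CPM in naive and 9.77 to 27.4 CPM in challenged libraries, with S100a8 called higher in both genotypes. The 5 mast cell markers summed to 13.2 to 38.8 CPM in naive and to 2.19 to 9.45 CPM in challenged libraries. Of these 5 markers, 5 were called lower in WT and 2 in Tim4KO, against 12.3% and 5.06% of all genes. With the replicate block over all libraries 4 were called lower in WT. The 6 markers of small peritoneal macrophages or dendritic cells summed to 62.1 to 84.9 CPM in naive and to 16.8 to 48.1 CPM in challenged libraries. The 5 B cell markers summed to 6.12 to 13.6 CPM in naive and 2.15 to 6.68 CPM in challenged libraries, and the 6 T and NK cell markers to 2.80 to 5.96 and 2.23 to 5.92 CPM. The 10 epithelial or tumour markers summed to 6.01 to 26.6 CPM in naive and to 1.60 to 5.47 CPM in challenged libraries, with Krt8, Krt19 and Epcam at 0 in some challenged libraries. The receptor gene background given above was also lower in challenged than in naive WT libraries, and overlapped in Tim4KO. WT naive 1 had the highest background (836 CPM) and the highest epithelial sum (26.6 CPM). WT ID8 3 had the lowest of both (6.25 and 1.60 CPM). The neutrophil sum went the other way with challenge. The part of background in these marker sums was not tested. The part of other cells in the immediate early gene changes was not tested.

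Exons of Jun overlap the antisense gene Junos on the opposite strand over 232 bases, those of Junb overlap Prdx2 over 173 bases and those of Jund overlap the gene model Gm11175 over 877 bases. As it is not given whether counting used strand, reads from these stretches cannot be assigned with certainty. Junos had 5 to 34 counts per library beside 349 to 2028 for Jun. Gm11175 had 0 counts in every library. Prdx2, which encodes a peroxiredoxin, was at 67.5 to 93.6 CPM in naive and 128 to 151 CPM in challenged libraries, and its part in the Junb counts was not tested.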

How the data were processed

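Per the labels' protocols, the RNeasy micro kit yielded the RNA of sorted LPM, from which the SMART-Seq mRNA LP kit gave the libraries. The authors deposited 1 table of raw counts, with Ensembl genes in rows. FastQC, STAR 2.5, mm10 and GRCm39 are listed in the submitters' processing notes, and the counting program, the annotation and the use of strand are not given in the sources used here. Because 2 builds are named, coordinates are given only for RefSeq promoters on GRCm38.p6. All 12 columns were matched to libraries by name. Symbols (52029 of 57010 identifiers) and exonic lengths came from GENCODE vM21.

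Counts were filtered with filterByExpr (minimum count 10) and scaled by TMM, and edgeR 4.0.16 in R 4.3.3 fitted 1 quasi-likelihood model of group means over the 12 libraries, leaving 8 residual degrees of freedom. Tests were two-sided and adjusted by Benjamini-Hochberg over 15943 genes, with a threshold of 0.05. The procedure was tested on simulated data. Levels are TMM-normalized CPM computed from the counts. Nothing in the labels says that a replicate number marks a shared source. In the WT challenge comparison the deviations of all 3 same-numbered pairs correlated above 0.1 (0.103 to 0.309, other pairs -0.252 to 0.156). WT naive 2 correlated more with WT ID8 1 (0.156) than with WT ID8 2 (0.105), so these values do not settle whether libraries are paired. In the other comparisons 0 to 2 of 3 same-numbered pairs correlated above 0.1. The fit has no replicate block. Values with the block over all libraries are given where they change a member's call or a printed count of called list genes. DESeq2 1.42.0, limma 3.58.1 (voom), other scalings, filters and sample sets were alternatives.

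The 10 genes and the lists were chosen with earlier results of these data known. All members are named. In each list up to 4 called genes with the smallest p could be named, and the 8 genes most like the average of the members in these libraries. Marker genes outside this rule were named after their values were seen.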

Additional observations from a re-analysis of the deposited data

How the results depend on the processing

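Depth limited Egr2, with 8 to 178 counts per library, and Fosb, with 1 to 25. All of 10 other settings and 12 fits that each left out a library called Jun higher in WT. The genotype difference in challenged cells had 0 of the 10 genes called in 9 other settings and these 12 fits, and the interaction 0 in 8 and these 12. Across all fits and comparisons, 10 calls of single members were lost, 30 were gained (1 of them, Egr2 in Tim4KO, with a changed sign) and 59 log2 values changed sign, and the cause was not tested. Upper-quartile scaling moved the median log2 change of all genes from -0.04 to -0.28 in WT and from -0.05 to -0.17 in Tim4KO, and the share of called genes that were higher from 61.3% to 33.9% and from 69.5% to 48.7%.

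With the replicate block, 5 of the 10 genes were called in WT (Fos, Jun, Jund, Atf3 and Ier3) and 2 in Tim4KO (Fosl2 and Jun). With the block over the WT libraries alone, an alternative added after the data were seen, 4 were called in WT (Jun, Jund, Egr1 and Atf3), with 2 MAP kinase genes higher and 1 lower and 0 of the 11 other bZIP genes. The block changed no other call of a member. In Tim4KO 2 genes were also called with no filter on low counts and with only the groups compared. In naive cells DESeq2 and the fit with no filter each called 1 gene between genotypes, Jun. Leaving out a library gave 2 to 5 called genes in WT, 0 to 2 in Tim4KO, and 0 to 1 between genotypes in naive cells.

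Counts over all genes moved too. The naive genotype comparison had 7 called genes, 52 with DESeq2, 59 with no filter, 3 with the replicate block, 4 with limma voom, 2 with only the groups compared and 1 to 29 without a library. The challenged one had 9, and 265, 264, 14 with DESeq2, no filter and the replicate block, 177 with the background covariate and 1 to 997 without a library. The interaction had 0, and 11, 73 and 2 with DESeq2, no filter and the background covariate, and 0 to 368 without a library, the highest counts being those without WT ID8 3. Leaving out a library gave 3362 to 7230 calls in WT against 5067, and 1222 to 3595 in Tim4KO against 2642. In WT there were 3102 with only the groups compared and 3081 with the block over these alone.

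Sign changes of single log2 values, none of them called, were these outside the fits that left out a library. For the WT challenge they were Junb with no filter (0.059), and Fosb (0.34) and Egr2 (0.45) with the background covariate. For the Tim4KO challenge they were Junb (-0.013) and Egr1 (-0.0087) under upper-quartile scaling, Junb with a mean count of at least 50 (-0.0030), and Egr2 with limma voom (0.50), no filter (0.023), the replicate block (0.21) and the background covariate (0.21). Between genotypes they were Ier3 in naive cells under upper-quartile scaling (-0.015), and Jund (-0.00075) and Atf3 (-0.021) in challenged cells with no filter. For the interaction they were Fosb under upper-quartile scaling (0.068), and Fos (0.030) and Egr2 (-0.24) with the background covariate.

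Leaving out a library moved the WT challenge value of Junb from -0.10 to 0.064 and of Egr2 from -0.41 to 0.12. The Tim4KO challenge value ranged from -0.24 to 0.83 for Egr1, from -0.47 to 2.17 for Egr2 and from -0.0020 to 0.57 for Atf3. The naive genotype difference ranged from -0.49 to 0.025 for Fosb, from -0.0052 to 0.14 for Junb, from -0.56 to 0.51 for Egr1, from -2.52 to 0.12 for Egr2 and from -0.18 to 0.17 for Ier3. The challenged one ranged from -0.33 to 0.82 for Fos, from -0.86 to 0.20 for Fosb, from -0.10 to 0.23 for Jund, from -0.39 to 0.066 for Egr2 and from -0.094 to 0.16 for Atf3. The interaction ranged from -1.02 to 0.12 for Fos, from -0.62 to 0.43 for Fosb and from -0.31 to 2.33 for Egr2.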

Other observations

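The average of the standardised log2 levels of the 10 genes was lowest in WT naive 1 (-0.63) and highest in Tim4KO ID8 3 (0.78). Fos (r = 0.79), Ier3 (0.74), Jun (0.73), Egr1 (0.71) and Jund (0.69) followed it most closely over the 12 libraries, whereas Fosl2 (-0.23) and Fosb (-0.19) ran the other way. Of 9722 other genes compared, the 8 with the pattern most like this average were Dync1i2 (r = 0.87), Klrg2 (0.86), Dnaaf5 (0.85), Plec (0.83), Plxna1 (0.82), Plekhg1 (0.81), Lzic (0.81) and Samd1 (0.81). Dync1i2 encodes a dynein intermediate chain, Plec the cytoskeletal linker plectin and Plxna1 a semaphorin receptor. These values describe 12 libraries that share groups, depth and scaling, and no other immediate early gene of the fixed lists was among the 8.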
